A study of Mus musculus with 6 samples.

Results

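The antioxidant response driven by the transcription factor NRF2 was examined through 10 genes out of the 22248 listed for the series. These 10 were chosen by name from knowledge of the pathway, with earlier results of these data known. They were *Nfe2l2*, which encodes NRF2, its inhibitor *Keap1*, and *Slc7a11*, *Gclc*, *Gclm*, *Txnrd1*, *Srxn1*, *Prdx1*, *Nqo1* and *Hmox1*. RNA was measured in 6 libraries of resting bone-marrow-derived macrophages (BMDMs), which are macrophages grown from marrow cells with macrophage colony-stimulating factor. The 3 control libraries came from Lyz2cre mice and the 3 CITED2-deficient libraries from Cited2 fl/fl:Lyz2cre mice, both on the C57BL/6 background and labelled as postnatal week 10, although the methods of the study give a younger age for marrow collection. Both genotypes carried the Cre recombinase, which is expressed from the *Lyz2* locus in cells of the myeloid lineage, so by design they differed in the floxed *Cited2* alleles. No stimulus was given to these cells. The design text counts 3 mice per genotype but does not tie a library to a mouse, and p-values measure the spread between these libraries only.

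In unstressed cells KEAP1 holds NRF2 in the cytoplasm and directs it to a CUL3 ubiquitin ligase for degradation. When electrophiles or oxidants modify KEAP1, NRF2 accumulates, pairs with a small MAF protein and binds antioxidant response elements (AREs) near its target genes. In macrophages this pathway is known for controlling glutathione and thioredoxin, the use of NADPH and the breakdown of heme. The amount of NRF2 is set largely at the protein level, which RNA does not measure.

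*Cited2* was measured first as a check of the genotype. Its level was 71.7, 79.3 and 75.5 FPKM (fragments scaled to transcript length and library size) in control BMDMs. In CITED2-deficient BMDMs it was 9.27, 7.22 and 7.53 FPKM, and the change was -3.09 on the log2(FPKM + 1) scale (SE 0.08, limma adjusted p = 6.57e-09). Depth recovered from the FPKM was 17289299 to 18952058 fragments in control and 22583990 to 26100404 in CITED2-deficient libraries, a mean ratio of 1.34, and the chi-square between replicates exceeded sampling noise in every pair. Of 9 macrophage markers 1 was higher and 5 were lower, beside 16.7% and 34.6% of all tested genes. Their summed level was 5818 to 5889 FPKM in control and 5472 to 5555 in CITED2-deficient libraries. *Lyz2*, whose locus carries the Cre, was among the lower, at 31.3 FPKM in control and 9.75 in CITED2-deficient libraries (-1.59, limma adjusted p = 2.33e-08). All 12 tested markers of fibroblasts or stromal cells were higher, beside 16.7% of all tested genes. None of the 15 in the list was at 0 in all libraries. Their summed level was 90.1 to 106.5 FPKM in control libraries against 848, 343 and 344 in CITED2-deficient replicates 1, 2 and 3. Neutrophil markers summed to 727 to 796 and 664 to 783 FPKM. Of the 8 tested 2 were higher and 5 lower, beside 16.7% and 34.6% of all tested genes. Some stromal and neutrophil markers called higher were under 1 FPKM in control, and were tested only through their level in CITED2-deficient libraries. The erythroid and megakaryocyte list summed to 313 to 341 and 74.4 to 84.7 FPKM, nearly all of it *Pf4*. *Itga2b*, the other tested gene of that list, went the other way (2.90 to 4.08 FPKM, limma adjusted p = 0.03). *Hba-a1*, *Hbb-bs* and *Klf1* reached at most 0.63 FPKM in a library. B cell, T or NK cell and dendritic cell lists reached at most 3.29, 1.25 and 1.42 FPKM. CITED2-deficient replicate 1, with the highest stromal sum, was the highest of its group for *Gclc*, *Gclm*, *Txnrd1*, *Srxn1* and *Prdx1*, the lowest for *Nfe2l2*, *Nqo1* and *Slc7a11*, and between the others for *Keap1* and *Hmox1*. The part of these other cell types in the results that follow was not tested.

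CITED2-deficient BMDMs had less RNA of most NRF2 target genes, with *Hmox1*, *Gclm* and *Nqo1* showing the lowest ratios, while *Keap1* and the cystine carrier gene *Slc7a11* were higher. All 10 genes passed the filter of a mean FPKM of at least 1 and were tested among 11687 genes with limma, at a Benjamini-Hochberg adjusted p of 0.05 and with no fold threshold. Of the 10, 7 were lower, 2 were higher and *Srxn1* did not pass. Over all tested genes 34.6% were called lower and 16.7% higher. The median change of the 10 genes was -0.23 on the log2(FPKM + 1) scale, beside -0.10 for all tested genes. When libraries were rescaled by the median ratio of their genes, 5 of the 10 were lower and 3 higher, against 22.0% and 22.5% of all tested genes, and the medians were -0.13 and -0.01. The 3 libraries of one genotype did not overlap those of the other, with CITED2-deficient libraries lower, for 6 of the 10 genes, and with them higher for 2. These shares were 40.9% and 19.0% over all tested genes. A lower value in such bulk RNA cannot be told apart as fewer cells that express the gene or less RNA per cell.

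**Figure D1:**
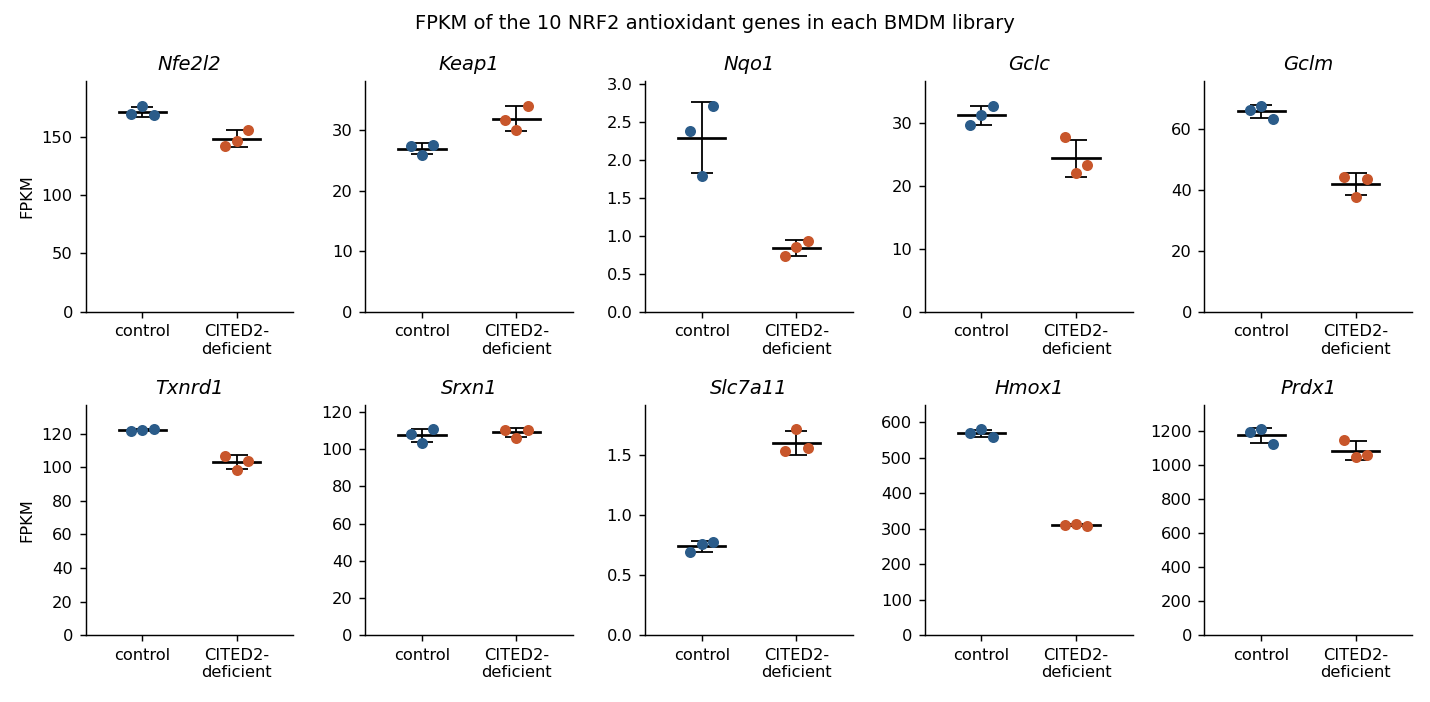
Level in FPKM of each of the 10 NRF2 pathway genes, 1 panel per gene with its own linear axis from 0, for 3 control (blue points) and 3 CITED2-deficient libraries (orange points), with the mean as a bar and the SD as whiskers. *Hmox1* sits at 559 to 580 FPKM in control and 308 to 314 in CITED2-deficient libraries, and *Slc7a11* at 0.692 to 0.779 and 1.53 to 1.71.

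**Figure D2:**
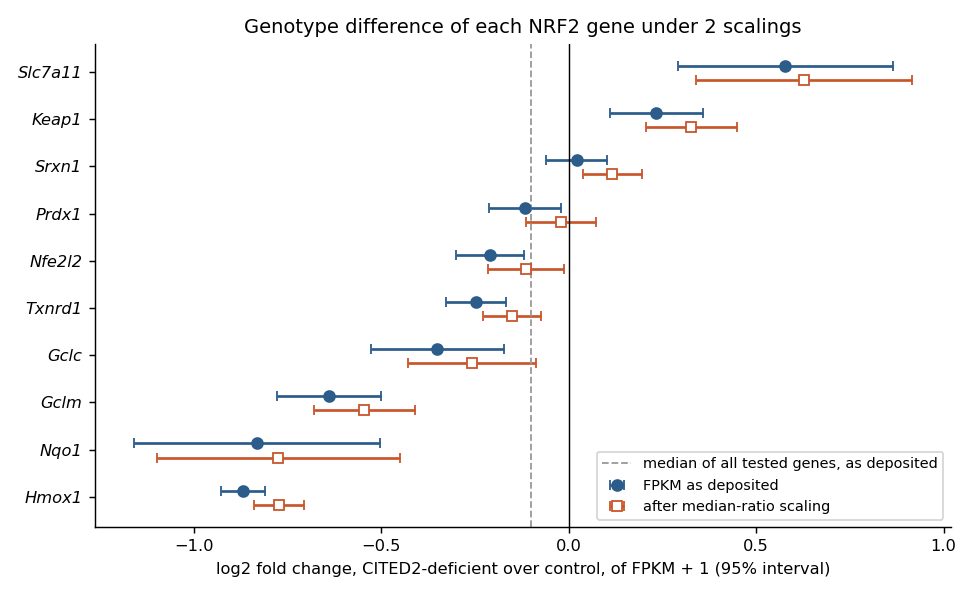
Change of each gene, CITED2-deficient over control, on the log2(FPKM + 1) scale with its 95% interval, from the FPKM as deposited (filled circles) and after median-ratio scaling (open squares), with a dashed line at the median of all tested genes, -0.10. As deposited *Hmox1* lies at -0.87 and *Srxn1* at 0.02, and each gene lies higher after median-ratio scaling.

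The levels, compared per length, ran in the control libraries from *Prdx1* at 1174 FPKM and *Hmox1* at 569 through *Nfe2l2*, *Txnrd1*, *Srxn1*, *Gclm*, *Gclc* and *Keap1* to *Nqo1* at 2.30 and *Slc7a11* at 0.743. No pair of neighbours in that order had overlapping control libraries. *Prdx1* stood at the 99.6th percentile of tested genes and *Slc7a11* at the 2.64th. In CITED2-deficient libraries 3 neighbouring pairs stood in the opposite order. *Srxn1* had a higher mean than *Txnrd1*, although their libraries overlapped, *Keap1* lay above *Gclc* and *Slc7a11* above *Nqo1*, both without overlap.

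The promoters of the genes were read for the ARE, since NRF2 binds AREs near its target genes. RefSeq windows of 250 bases before to 50 after each start site (GRCm38.p6) were matched by symbol for 8 of the 10 genes, in 10 windows, and *Gclc* and *Hmox1* were not matched. The ARE core, TGACNNNGC on either strand (GCNNNGTCA when read from the other strand), lay in the windows of 5 of these 8 genes. It is found in 12.4% of all 32851 windows and in 14% of the 27025 genes they belong to. Each match is shown with its surroundings because these are the letters in which such elements differ between the genes. The sequences run 5′ to 3′ along the gene's strand and capitals mark the ARE core.
Nfe2l2: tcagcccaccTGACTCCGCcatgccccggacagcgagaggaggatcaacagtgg
Gclm: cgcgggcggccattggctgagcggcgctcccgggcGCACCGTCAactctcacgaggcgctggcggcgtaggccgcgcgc
Txnrd1: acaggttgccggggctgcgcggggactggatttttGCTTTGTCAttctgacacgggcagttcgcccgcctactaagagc
Srxn1: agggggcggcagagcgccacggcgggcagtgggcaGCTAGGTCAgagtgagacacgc
Prdx1: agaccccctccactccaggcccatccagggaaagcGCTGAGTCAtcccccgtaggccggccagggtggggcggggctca

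These stretches lie at chr2:75704860-75704913 (minus strand) for *Nfe2l2*, chr3:122245388-122245466 (plus) for *Gclm*, chr10:82859079-82859157 (plus) for the second of 3 annotated starts of *Txnrd1*, chr2:152105517-152105573 (plus) for *Srxn1* and chr4:116685431-116685509 (plus) for *Prdx1*. The core began 240 bases before the start of *Nfe2l2*, 134 before that of *Gclm*, 92 before that start of *Txnrd1* and 133 before that of *Prdx1*. In *Srxn1* it began 29 bases after the start. The core of *Nfe2l2* read along the gene and the other 4 read from the opposite strand. The AP-1 site, TGANTCA, which reads the same on both strands and is found in 7.81% of all windows, was found at 2 places each in *Srxn1* and *Prdx1*. The nearer AP-1 site of *Prdx1* lies inside its ARE core. Windows of *Keap1*, *Nqo1* and *Slc7a11* held neither set of letters. Sequence outside the windows was not read for any gene, so AREs farther from the start sites would be missed. A match of letters does not show binding, and binding of NRF2 to these sites was not tested.

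**Figure D3:**
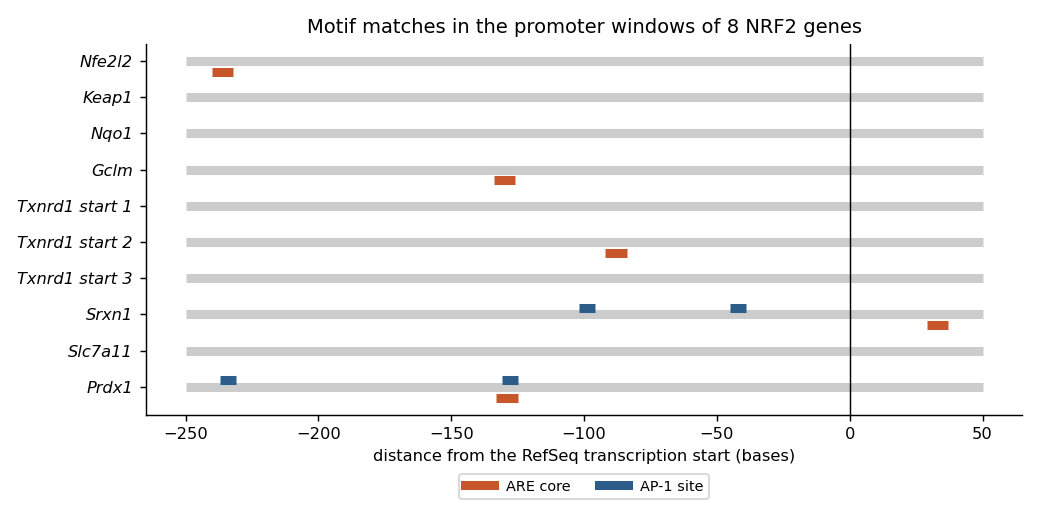
Position of the ARE core (orange) and the AP-1 site (blue), in bases from the RefSeq transcription start, in the 10 promoter windows (grey bars) of 8 NRF2 pathway genes. The ARE core appears in 5 windows, in 4 of them starting 92 to 240 bases before the start site and in *Srxn1* 29 bases after it.

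*Nfe2l2*, which encodes NRF2 (ENSMUSG00000015839, chr2:75675513-75704641, mm10), was measured at 169, 177 and 169 FPKM in control and at 142, 146 and 156 FPKM in CITED2-deficient libraries. Every CITED2-deficient library lay below every control library. The means were 171.5 ± 4.50 and 148.3 ± 7.18 FPKM (SD, n = 3 each), and the change was -0.21 on the log2(FPKM + 1) scale (95% interval -0.30 to -0.12, limma adjusted p = 0.00212). After median-ratio scaling the change was -0.11 and no longer passed (limma adjusted p = 0.0651).

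*Keap1*, the adaptor that presents NRF2 for degradation (ENSMUSG00000003308, chr9:21229730-21239361), stood at 27.5, 25.9 and 27.6 FPKM in control libraries and at 31.7, 30.0 and 34.1 in CITED2-deficient libraries. All 3 CITED2-deficient values were above the control values. The rise from 27.0 ± 0.956 to 31.9 ± 2.03 FPKM (SD, n = 3) was 0.23 on the log2(FPKM + 1) scale (95% interval 0.11 to 0.36, limma adjusted p = 0.00641), and 0.33 after median-ratio scaling. The ratio of *Keap1* to *Nfe2l2* within a library, which a single scaling factor per library cannot change, was 0.162, 0.146 and 0.163 in control and 0.222, 0.205 and 0.218 in CITED2-deficient libraries. This ratio was 1.37 times as high in CITED2-deficient BMDMs, without overlap. The exact two-sided permutation test gave p = 0.1, the smallest that 3 against 3 libraries allow. The ratios given here and below were chosen after the values of their genes had been seen. Their permutation p-values therefore cannot serve as independent support. An antisense gene, *Gm16754*, overlaps *Keap1*. Of the lower genes, *Nfe2l2* is overlapped on its own strand by *Gm24996*, *Gclm* by the pseudogene *Gm6061* and *Txnrd1* by the protein-coding *Eid3*.

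Glutathione is made from cystine, which enters the cell through the SLC7A11 transporter, by glutamate-cysteine ligase, whose catalytic subunit is GCLC and whose modifier subunit is GCLM. *Slc7a11* (ENSMUSG00000027737, chr3:49892526-50443614) was at 0.692, 0.757 and 0.779 FPKM in control and at 1.53, 1.71 and 1.56 in CITED2-deficient libraries, from 47 to 53 and 139 to 146 recovered fragments. The groups did not overlap, and the ratio of the means was 2.16. On the log2(FPKM + 1) scale, which understates changes of weakly expressed genes, the difference was 0.58 (95% interval 0.29 to 0.87, limma adjusted p = 0.00461), and with a pseudocount of 0.1 it was 1.01. Several pseudogenes and antisense models lie within the span of *Slc7a11*.

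*Gclc* (ENSMUSG00000032350, chr9:77754535-77794485) was at 29.8, 31.3 and 32.8 FPKM in control libraries and at 27.7, 22.1 and 23.3 in CITED2-deficient libraries. *Gclm* (ENSMUSG00000028124, chr3:122245557-122270732) was at 66.4, 67.7 and 63.4 FPKM and at 44.4, 37.9 and 43.8. Both subunits were lower in every CITED2-deficient library than in every control library. *Gclc* fell from 31.3 ± 1.5 to 24.4 ± 2.93 FPKM (SD, n = 3), or -0.35 on the log2(FPKM + 1) scale (95% interval -0.53 to -0.17, limma adjusted p = 0.00514). *Gclm* fell from 65.9 ± 2.22 to 42.0 ± 3.61 FPKM, or -0.64 (95% interval -0.78 to -0.50, limma adjusted p = 2.89e-05). Both calls held after median-ratio scaling. The ratio of *Gclm* to *Gclc* was 2.23, 2.17 and 1.94 in control and 1.6, 1.71 and 1.88 in CITED2-deficient libraries (exact permutation p = 0.1, the smallest possible). The ratio of *Slc7a11* to *Gclc* was 2.80 times as high in CITED2-deficient libraries.

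Thioredoxin reductase 1 (*Txnrd1*) uses NADPH to reduce thioredoxin, peroxiredoxin 1 (*Prdx1*) removes peroxides with electrons from it, and sulfiredoxin (*Srxn1*) restores peroxiredoxins that have been overoxidized. *Txnrd1* (ENSMUSG00000020250, chr10:82833951-82897712) was at 121.8, 122.3 and 122.4 FPKM in control libraries and at 106.6, 98.5 and 103.6 in CITED2-deficient libraries. The control values nearly coincided and lay above all CITED2-deficient values, and the change was -0.25 on the log2(FPKM + 1) scale (95% interval -0.33 to -0.17, limma adjusted p = 0.000401). It also passed after median-ratio scaling, at -0.15.

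*Srxn1* (ENSMUSG00000032802, chr2:152105516-152111376) was at 107.8, 103.4 and 110.5 FPKM in control and 110.4, 105.7 and 110.3 in CITED2-deficient libraries. The groups overlapped, and the difference of 0.02 on the log2(FPKM + 1) scale did not pass (95% interval -0.06 to 0.10, limma adjusted p = 0.642). After median-ratio scaling it was 0.12 and passed as higher (limma adjusted p = 0.0209). *Prdx1* (ENSMUSG00000028691, chr4:116685544-116700822) was at 1190, 1207 and 1125 FPKM in control and at 1148, 1043 and 1058 in CITED2-deficient libraries. Its groups overlapped as well, through CITED2-deficient replicate 1. The change of -0.12 (95% interval -0.21 to -0.02, limma adjusted p = 0.0436) was past the threshold by a small margin and was lost under 7 of 16 alternatives, among them median-ratio scaling, where it was -0.02 (limma adjusted p = 0.726). The call was also lost without control replicate 1 or 2 (limma adjusted p = 0.12 and 0.135) and without CITED2-deficient replicate 2 or 3 (0.126 and 0.129). The ratio of *Txnrd1* to *Srxn1* was 0.829 times its control value. That of *Srxn1* to *Prdx1* was 0.0906, 0.0857 and 0.0982 in control and 0.0962, 0.101 and 0.104 in CITED2-deficient libraries. Here the groups overlapped (exact permutation p = 0.2).

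*Nqo1*, a quinone reductase that is widely used as a readout of NRF2 activity (ENSMUSG00000003849, chr8:107388225-107403206), was weakly expressed in these macrophages. It was at 2.38, 1.79 and 2.72 FPKM in control and at 0.735, 0.855 and 0.937 FPKM in CITED2-deficient libraries, from 48 to 80 and 29 to 38 fragments. The groups did not overlap, and the mean was 0.367 times the control mean. On the log2(FPKM + 1) scale the change was -0.83 (95% interval -1.16 to -0.50, limma adjusted p = 0.00129), and a pseudocount of 0.1 gave -1.33.

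*Hmox1*, which encodes heme oxygenase 1 and thus the first step of heme breakdown (ENSMUSG00000005413, chr8:75093621-75100589), had the smallest adjusted p of the 10 genes. It stood at 568, 580 and 559 FPKM in control and at 312, 314 and 308 FPKM in CITED2-deficient libraries. The libraries of each genotype lay close together and far from the other genotype. The mean fell from 569 ± 10.4 to 311 ± 3.52 FPKM (SD, n = 3), or -0.87 on the log2(FPKM + 1) scale (95% interval -0.93 to -0.81, limma adjusted p = 1.47e-08), and it was -0.77 after median-ratio scaling. Its ratio to *Nfe2l2* was 3.36, 3.28 and 3.31 in control and 2.19, 2.15 and 1.97 in CITED2-deficient libraries, a mean 0.634 times that of the control (exact permutation p = 0.1, the smallest possible).

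**Figure D4:**
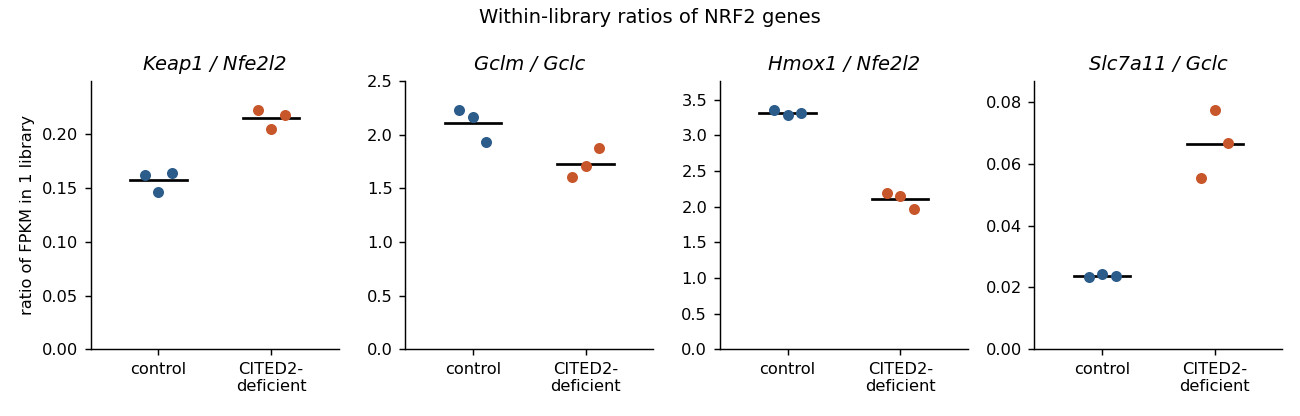
Ratio of the FPKM of a pair of genes within each library, 1 panel per pair with its own linear axis from 0, for 3 control (blue) and 3 CITED2-deficient libraries (orange), with a bar at each mean. The groups are apart in all 4 panels, with *Keap1* to *Nfe2l2* and *Slc7a11* to *Gclc* higher and *Gclm* to *Gclc* and *Hmox1* to *Nfe2l2* lower in CITED2-deficient libraries. The ratios of *Srxn1* to *Prdx1*, whose groups overlapped, and of *Txnrd1* to *Srxn1*, whose groups were apart, are not drawn.

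Among the 6 libraries the genes whose level was most like that of *Nfe2l2*, by Pearson's r of log2(FPKM + 1), were *Zfp212*, *Atp5b* and *Polr2f* (each 0.995) and *Tprn* and *Lamtor2* (each 0.993). Of the NRF2 genes, *Hmox1* and *Gclm* had r of 0.917 and 0.916, *Srxn1* -0.37, *Keap1* -0.76 and *Slc7a11* -0.91. These values describe 6 libraries that fall into the 2 genotypes and are given without a test.

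Of 14 regulators and partners of NRF2, all tested, 5 were higher, 1 was lower and 8 did not pass, with a median change of 0.04 on the log2(FPKM + 1) scale. Of all tested genes 16.7% were higher and 34.6% lower. After median-ratio scaling 6 of the 14 were higher and 1 lower, beside 22.5% and 22.0% of all tested genes. *Bach1*, a repressor that competes with NRF2 for AREs, was at 86.2, 87.4 and 84.9 FPKM in control and at 93.9, 100.1 and 99.6 in CITED2-deficient libraries, a rise of 0.18 (limma adjusted p = 0.00243). The small MAF proteins are the DNA-binding partners of both NRF2 and BACH1, and their genes moved in different directions. *Mafk* rose from 20.5 ± 0.248 to 29.6 ± 0.597 FPKM (0.51, limma adjusted p = 1.18e-05). *Mafg* fell from 89.9 ± 3.02 to 71.8 ± 2.65 (-0.32, limma adjusted p = 0.000171). *Maff*, at 2.01 and 2.43 FPKM, did not pass.

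*Sqstm1*, whose product p62 binds KEAP1 and delivers it to autophagy, was at 565, 593 and 594 FPKM in control libraries and 715, 710 and 721 in CITED2-deficient libraries, a rise of 0.29 (limma adjusted p = 2.86e-05). *Nfe2l1*, which encodes the related factor NRF1, rose from 80.7 to 91.3 FPKM, and *Ep300*, a coactivator that binds CITED2, from 102 to 117 (limma adjusted p = 0.00151 and 0.00863). The ligase components *Cul3* and *Rbx1*, as well as *Btrc*, *Gsk3b*, *Dpp3*, *Dpp9* and *Crebbp*, did not pass, with changes of -0.10 to 0.10. *Gsk3b* passed as higher under 4 of 16 alternatives, which were median-ratio scaling (limma adjusted p = 0.00309), quantile normalization (0.0127), limma-voom on recovered fragments (0.0433) and leaving out control replicate 3 (0.0482). *Dpp3* passed as lower without the filter on low values (0.0462).

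The 5 lists of the wider pathway held 76 genes, of which 70 were tested, 15 higher, 34 lower and 21 not past the threshold, beside 16.7% higher and 34.6% lower of all tested genes, and their median change was -0.14 beside -0.10. After median-ratio scaling 17 were higher and 30 lower, beside 22.5% and 22.0% of all tested genes. *Ggt1* was not analysed here, and 5 genes did not reach the mean FPKM of 1.

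Of 17 tested genes of glutathione synthesis and use, 9 were lower and 5 higher, with a median of -0.23, beside 34.6% lower and 16.7% higher of all tested genes. The conjugating enzymes *Gstm1* (141.8 to 94.4 FPKM, limma adjusted p = 1.63e-06) and *Gstm5* (8.85 to 4.70, 6.75e-05) and the exporter *Abcc1* (75.4 to 53.3, 1.08e-05) showed the largest falls. *Gstm2* (2.53 to 4.52 FPKM), the glutaredoxin gene *Glrx* (18.9 to 29.3) and *Chac1*, which encodes a glutathione-degrading enzyme (0.666 to 1.42), showed the largest rises (limma adjusted p = 0.00315, 9.77e-06 and 0.0329). *Gstm2* and *Chac1* were highest in CITED2-deficient replicate 1, the library with the most stromal marker RNA. So were *Mafk*, *Nfe2l1*, *Msrb1*, *Sesn2* and *Ugdh* among the other genes of the 5 lists named as higher. *Chac1* passed the filter only through the CITED2-deficient libraries, and its call was lost under 5 of 15 alternatives. *Chac1* did not pass without the filter (limma adjusted p = 0.057), without control replicate 2 or 3, or without CITED2-deficient replicate 1 or 2. Without CITED2-deficient replicate 1 the change was 0.39 (limma adjusted p = 0.112). The Gstm genes are similar in sequence, so fragments may have been divided between them. Named after their values were seen, *Gpx1* (533 to 720 FPKM) and *Slc3a2*, the partner chain of SLC7A11 (323 to 374), were higher, and *Gpx4*, which removes lipid peroxides (325 to 261), and glutathione reductase *Gsr* (65.3 to 53.9) were lower (limma adjusted p = 1.31e-05, 0.000523, 1.94e-05 and 0.00063).

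Among 16 genes of thioredoxins, peroxiredoxins and the removal of superoxide or peroxide, 7 were lower and 3 higher, which lay near the 34.6% and 16.7% of all tested genes. Catalase, *Cat*, was at 256, 268 and 264 FPKM in control and 148, 144 and 138 in CITED2-deficient libraries, a change of -0.87 (limma adjusted p = 8.03e-08). Cytosolic superoxide dismutase *Sod1* fell from 63.4 ± 3.89 to 38.7 ± 1.91 FPKM (-0.70) and the thioredoxin inhibitor *Txnip* from 891 ± 19.8 to 619 ± 5.17 (-0.52). The methionine sulfoxide reductases *Msrb1* (74.9 to 100.9 FPKM) and *Msra* (22.9 to 28.9) rose, and *Sesn2* (5.77 to 7.0) passed by a small margin (limma adjusted p = 5.55e-05, 0.0004 and 0.0464). The *Sesn2* call was lost without control replicate 1 or 3 and without any 1 of the CITED2-deficient replicates (limma adjusted p = 0.0572 to 0.147).

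Of 6 genes that supply NADPH, 3 were lower and 3 did not pass, beside 34.6% lower of all tested genes. The lower genes were *Idh1* (268 to 184 FPKM), and *G6pdx* (199 to 156) and *Pgd* (306 to 252) of the pentose phosphate pathway (limma adjusted p = 2.13e-06, 2.56e-05 and 0.000111).

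Quinone, aldehyde and heme handling had the lowest median of the 5 lists, at -0.36. Here 14 of 17 tested genes were lower and 2 higher, beside 34.6% and 16.7% of all tested genes. After median-ratio scaling 12 were lower and 2 higher, beside 22.0% and 22.5% of all tested genes, and the median was -0.27. The carbonyl reductase *Cbr3* was at 24.2, 24.3 and 22.9 FPKM in control and 10.9, 13 and 13.8 in CITED2-deficient libraries (-0.88, limma adjusted p = 2.09e-05). The aldo-keto reductase *Akr1b8* fell from 89.2 to 52.7 FPKM (-0.75). The biliverdin reductase genes *Blvrb* (263 to 163 FPKM, -0.68) and, named after its value was seen, *Blvra* (123 to 92.1, -0.42) were lower. By contrast *Hmox2*, the constitutive heme oxygenase gene, rose from 103 ± 3.54 to 129 ± 6.82 FPKM, by 0.33 (limma adjusted p = 0.000265). *Ugdh*, which makes UDP-glucuronate, also rose, from 25.3 to 29.8 FPKM.

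**Figure D5:**
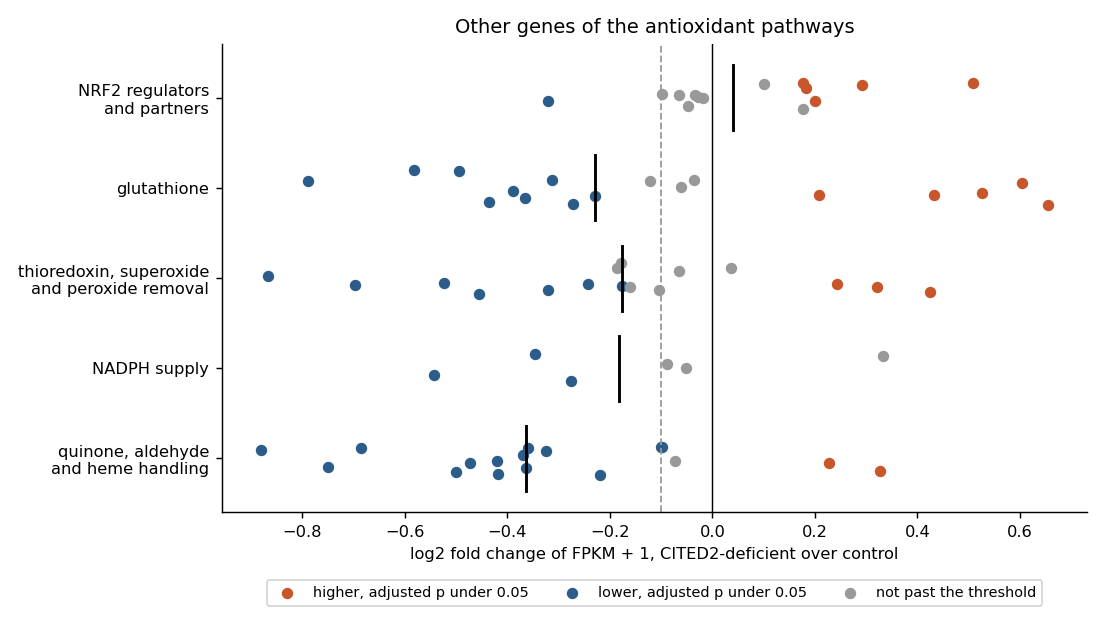
Change, CITED2-deficient over control, on the log2(FPKM + 1) scale for the tested genes of 5 pathway lists, 1 point per gene colored by its limma call (orange higher, blue lower, grey not past the threshold), with a black bar at the median of each list and a dashed line at the median of all tested genes. In quinone, aldehyde and heme handling 14 of 17 genes are lower, and among the regulators 5 of 14 are higher and 1 is lower.

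The 5 genes with a mean under 1 FPKM were given as recovered fragments. *Gsta3* had 22, 20 and 22 fragments in control and 3, 7 and 6 in the more deeply sequenced CITED2-deficient libraries. *Slc1a4*, a neutral amino acid transporter gene, had 40, 31 and 26 in control and 115, 110 and 111. *Gsta4* had at most 5 fragments in a library, *Aox1* 15 to 28 and *Abcb6* 5 to 26, too few to describe a difference at this depth.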

How the data were processed

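Stranded, rRNA-depleted libraries of 6 BMDM cultures were mapped by the authors to mm10 with STAR, and the deposited FPKM per gene and library were made with Cuffdiff and the GENCODE annotation. The sources used here do not give tool versions. FPKM are divided by transcript length and library size, so the change of a few abundant genes can shift all others. Columns were matched to samples by name.

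FPKM were tested as log2(FPKM + 1) for genes with a mean of at least 1 FPKM with limma 3.58.1 in R 4.3.3 (variance trend, Benjamini-Hochberg adjustment over 11687 genes, threshold 0.05, two-sided). The fit was also run on simulated data, with as many rises as falls, all in genes of ample fragments. The calls here are not so balanced, and that run says nothing about changes of weakly expressed genes. Fragments were recovered with GENCODE vM21 mean transcript lengths, and 95.8% of matched genes came out whole within 0.02 in all libraries. Besides cell type markers, the named genes are *Cited2*, the 10 genes, 14 regulators and the 3 largest rises and falls of each other list. Genes below the filter and the 5 genes most like *Nfe2l2* are named too, and genes outside this rule are marked. The genes and lists were chosen with earlier results of these data known. Alternatives were pseudocounts of 0.1 and 0.5, no filter or 5 FPKM, median-ratio and quantile scaling, a replicate block, array weights, no trend, leaving out each library, limma-voom on recovered fragments and a fold of 1.5.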

Additional observations from a re-analysis of the deposited data

How the results depend on the processing

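Of the 10 genes 2 were higher and 7 lower, and of the pathway lists 15 and 34, beside 16.7% and 34.6% of all tested genes. A minimum mean of 5 FPKM left 1 of the 10 higher, since *Slc7a11* and *Nqo1* were no longer tested. With that minimum 1505 of all 8712 tested genes were higher and 3481 lower. At a fold of 1.5 on the log2(FPKM + 1) scale 0 of the 10 were higher and 3 lower, and 2 and 6 of the lists. The share of all tested genes past that fold was not counted. Without 1 library each in turn 6 to 7 of the 10 were lower and 2 higher, and 13 to 14 of the lists were higher and 32 to 38 lower. Of all 11687 tested genes 1776 to 1832 were then higher and 3419 to 3684 lower. Over all alternatives, 832 values for named genes other than cell type markers kept direction and call. Of the rest 22 lost the call, 6 gained it and 15 changed sign. Changed signs belonged to small differences. They were *Srxn1* without control replicate 2 (-0.0041), median-ratio scaling for *Cul3* (0.062), *Rbx1* (0.066), *Btrc* (0.035), *Dpp9* (0.072), *Crebbp* (0.026) and *Atp5b* (0.048), and quantile scaling for *Rbx1* (0.0066), *Btrc* (0.033), *Dpp9* (0.049) and *Crebbp* (0.0051). They also were *Rbx1* without control replicate 2 (0.0013) or CITED2-deficient replicate 2 (0.0051), and *Dpp9* without control replicate 3 (0.020) or CITED2-deficient replicate 2 (0.014). Leaving out 1 library each gave -0.0041 to 0.043 for *Srxn1*, -0.0804 to 0.0051 for *Rbx1* and -0.066 to 0.020 for *Dpp9*. The cause was not tested. With a replicate block 2 of the 10 were higher and 7 lower, and 15 and 33 of the lists, beside 1895 and 3813 of all 11687 tested genes. Deviations of same-numbered libraries correlated at 0.014, 0.0078 and 0.040, so the numbers were not taken to pair the libraries. With 3 libraries per group, and fewer than 100 fragments per control library for *Nqo1* and *Slc7a11*, their ratios have wide errors.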
